A study of Mus musculus with 235 samples.

Results

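Prox1, C1ql2, Dsp, Stxbp6, Lct, Tdo2, Plk5 and Npnt, 8 marker genes of dentate granule cells, were followed across punched mouse brain tissue after a single dose of dexamethasone. The members were chosen by symbol, and all 8 were found among the 27998 genes of the count table. Adult male C57Bl/6 mice aged 3 month received either saline as vehicle (15 animals, called CNTRL in the labels) or dexamethasone at 10 mg per kg (15 animals, DEX), injected into the abdominal cavity. Brains were taken 4 h later, and 8 regions were punched from frozen sections. The results turn mainly on 117 libraries of 4 regions, which the labels name dDG (15 CNTRL, 15 DEX), vDG (15, 15), dCA1 (15, 13) and vCA1 (14, 15). The other regions, AMY (15, 15), CER (15, 15), PFC (15, 14) and PVN (14, 15), served as outside tissue, and most animals contributed to every region. Each library is a punch of bulk tissue, so fewer cells of a type and less RNA per cell cannot be told apart.

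The dentate gyrus is the entry station of the hippocampus. Its principal neurons, the granule cells, send mossy fibre axons to CA3, and new granule cells are added in adult life. Dexamethasone is a synthetic agonist of the glucocorticoid receptor, a transcription factor that granule cells express. A punch can hold a variable amount of the granule cell layer, so a marker of that layer can vary with the position of the punch as well as with its own expression.

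Prox1 encodes the homeodomain transcription factor that sets and holds granule cell identity (ENSMUSG00000010175, chr1:190118035-190170714, minus strand, mm10). C1ql2 encodes a secreted C1q-like protein of the mossy fibre synapse (ENSMUSG00000036907, chr1:120340582-120343174, plus strand). Stxbp6 encodes amisyn, a syntaxin-binding protein of the vesicle fusion machinery (ENSMUSG00000046314, chr12:44852488-45074493, minus strand). Dsp encodes desmoplakin, which ties desmosomes to intermediate filaments (ENSMUSG00000054889, chr13:38151328-38198577, plus strand). Npnt encodes nephronectin, an extracellular matrix ligand of integrins (ENSMUSG00000040998, chr3:132881745-132950291, minus strand). Plk5 encodes a polo-like kinase (ENSMUSG00000035486, chr10:80356459-80365489, plus strand). Tdo2 encodes tryptophan dioxygenase, the first enzyme of the kynurenine pathway and a classical glucocorticoid-induced gene of liver (ENSMUSG00000028011, chr3:81957090-81976202, minus strand). Lct encodes lactase (ENSMUSG00000026354, chr1:128284756-128328318, minus strand). Positions span the first to the last exon base in the count table, and the counts refer to exons. Of the 8390 exon bases of Prox1, 133 are shared with Prox1os on the other strand. Whether reads were assigned by strand is not given in the sources used here, so the 2 cannot be told apart there. No other member shares exon bases with a listed gene.

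Library totals ran from 297943 to 1451422 counts in the 4 hippocampal regions. Levels are given as CPM, a gene's count relative to its library's total after that total was corrected by the trimmed mean method (TMM) over all libraries. The arm labels were checked with Fkbp5, Tsc22d3 and Sgk1, textbook glucocorticoid targets, and each rose after DEX in all 8 regions. The summed level of 7 CA1 pyramidal markers did not set the dCA1 punches apart. Its median was 372 CPM in dCA1, 428 CPM in dDG, 353 CPM in vDG and 705 CPM in vCA1 of CNTRL animals. The summed level of the 8 dentate markers had medians of 1349, 1066, 426 and 233 CPM in the same order. In DEX animals it was 960 CPM in dCA1 and 1270 CPM in dDG. Dentate signal was thus high in the libraries labelled dCA1 in both arms, and they are described by their label only. Of 5 markers of hilar mossy cells, Drd2 and Glp1r had no count in any hippocampal library. Choroid plexus markers had a summed level from 50.4 to 11614 CPM in dDG of CNTRL animals.

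In 4 libraries from vDG and vCA1, genes of cerebellar neurons were high. Gabra6, a receptor subunit of cerebellar granule cells, had 289 counts in vDG DEX replicate 13, 233 in vDG CNTRL replicate 4, 185 in vCA1 CNTRL replicate 15 and 157 in vDG CNTRL replicate 15. Pcp2, a Purkinje cell gene, had 105, 82, 91 and 44 counts in the same libraries. No other library of the study exceeded 19 counts of Gabra6 or 25 of Pcp2, and the 30 libraries labelled CER summed to 11 and 10. Plk5 was also high in these libraries, at 117, 69.7, 107 and 51.0 CPM, and stood 3.25, 2.15, 3.26 and 1.93 log2 units above the mean of the other 7 members. The library next in Gabra6, vDG CNTRL replicate 14 with 19 counts, had Plk5 at 1.83 above that mean. Results in vDG and vCA1 were therefore also computed without these 4 libraries, a choice made after the data were seen, and are given both ways below where a call differs.

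Prox1 was highest in dCA1 and dDG. In CNTRL animals its lowest, median and highest levels were 262, 523 and 709 CPM in dCA1, 63.0, 422 and 912 in dDG, 127, 194 and 590 in vDG, and 44.8, 105 and 162 in vCA1. The ranges of dCA1, dDG and vDG overlapped. No vCA1 library reached the lowest dCA1 library. After DEX, Prox1 lay at 64.1, 468 and 642 CPM in dDG, 42.8, 218 and 499 in vDG, 63.7, 400.1 and 679 in dCA1, and 39.8, 145 and 423 in vCA1.

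The mossy fibre gene C1ql2 had the same order of regions, with CNTRL medians of 185 CPM in dCA1 (105 to 297), 138 in dDG (5.48 to 312), 68.6 in vDG (24.1 to 194) and 21.3 in vCA1 (4.46 to 42.2). After DEX the medians were 118 CPM in dCA1 (15.4 to 231), 143 in dDG (6.41 to 247), 76.1 in vDG (8.92 to 147) and 35.8 in vCA1 (8.78 to 141). The vesicle gene Stxbp6 differed less between regions. Its CNTRL medians were 277 CPM in dCA1 (92.6 to 438), 228 in dDG (73.9 to 491), 101 in vDG (40.2 to 288) and 60.4 in vCA1 (42.6 to 112). After DEX, Stxbp6 had medians of 203, 274, 81.0 and 88.3 CPM in these 4 regions. Outside the hippocampus the CNTRL medians of Stxbp6 were 96.6 CPM in AMY, 82.8 in PFC, 82.25 in CER and 70.5 in PVN. All of these were above that of vCA1.

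Dsp, the desmosome gene, was low in vDG and vCA1. Its CNTRL medians were 113 CPM in dCA1 (64.8 to 173), 94.5 in dDG (0 to 242), 10.2 in vDG (0 to 104) and 7.30 in vCA1 (0 to 21.1, with 3 libraries at 0). After DEX the medians were 145 CPM in dCA1 (13.2 to 208), 166 in dDG (3.21 to 229), 20.9 in vDG (0 to 87.1) and 24.6 in vCA1 (2.41 to 94.9). The 1 dDG library of the CNTRL arm with no Dsp count, replicate 1, was also the lowest in that group for the 8 other dentate genes used below.

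Npnt, the matrix gene, had CNTRL medians of 84.2 CPM in dCA1 (48.0 to 130.1), 73.0 in dDG (8.30 to 123), 32.3 in vDG (2.68 to 88.7) and 9.28 in vCA1 (1.95 to 30.2). It was not limited to the hippocampus, and its PFC median of 41.5 CPM came before that of vDG. Plk5 had CNTRL medians of 84.0 CPM in dCA1 (20.1 to 130.1), 60.0 in dDG (8.21 to 164), 30.6 in vDG (9.16 to 69.7) and 8.63 in vCA1 (3.46 to 107). The highest Plk5 value in vCA1 is the library with cerebellar genes, and without it the highest is 18.4 CPM. Plk5 was not limited to the hippocampus either. Its CNTRL medians elsewhere ran from 13.1 CPM in PFC to 17.0 in PVN, all above that of vCA1.

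The enzymes were low. Tdo2 had CNTRL medians of 35.7 CPM in dCA1, 26.3 in dDG, 6.57 in vDG and 5.49 in vCA1. Lct had medians of 33.0 CPM in dDG, 31.5 in dCA1, 3.31 in vCA1 and 2.68 in vDG. Lct was the 1 member with dDG first in the order of CNTRL medians, and dCA1 came first for the other 7. Outside the hippocampus the median of Lct was 0 in both arms of all 4 regions.

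**Figure D1:**
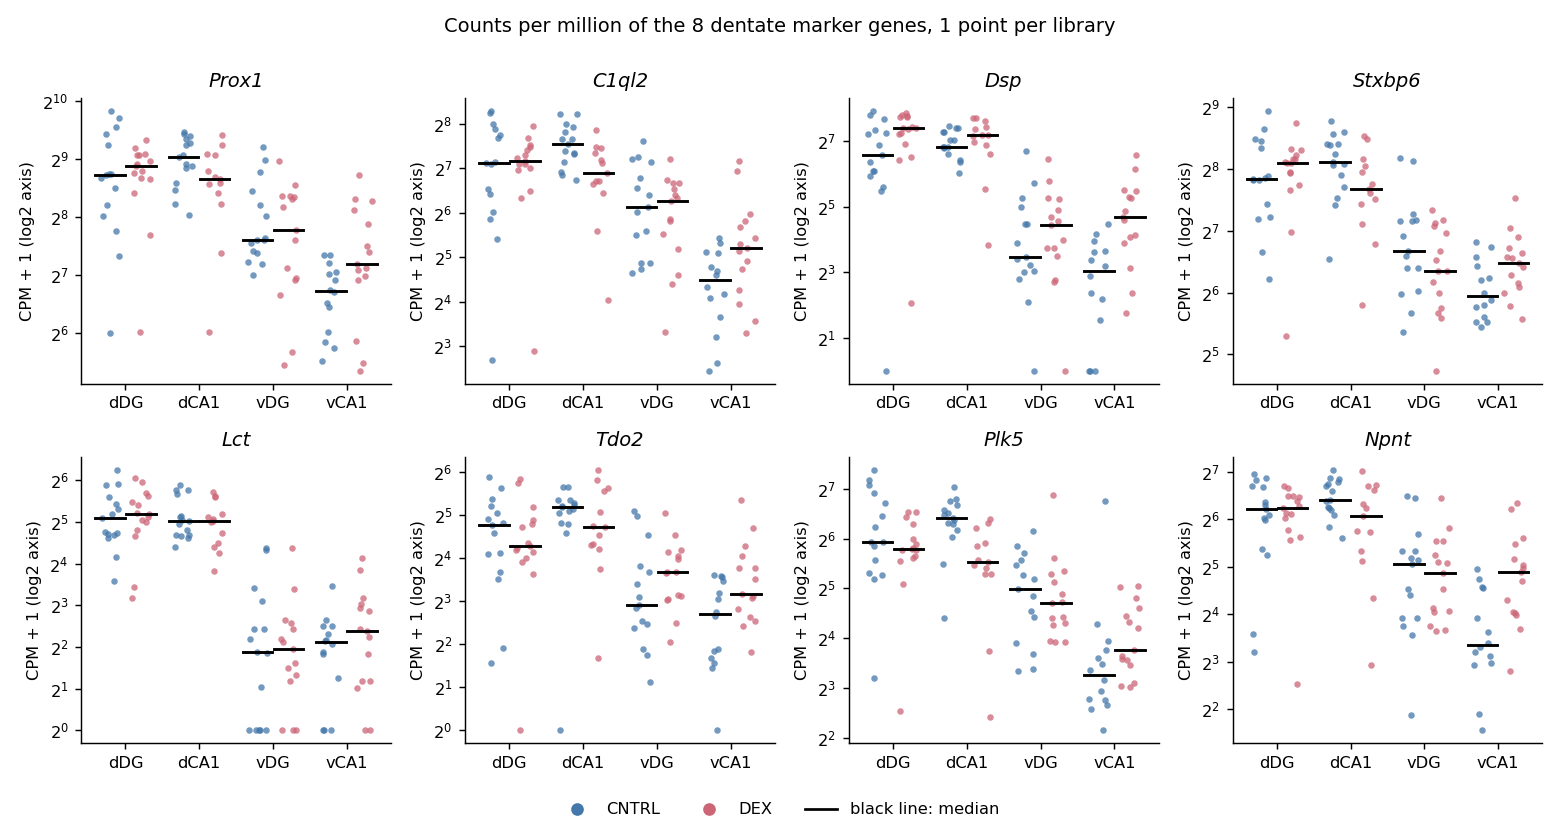
CPM + 1 on a log2 axis for each of the 8 genes, with 1 point per library, the 4 hippocampal regions on the x axis and the arms side by side; the black bars mark group medians. The dDG and dCA1 groups sit above vDG and vCA1 for each gene by group median.

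Region differences in CNTRL animals were tested with the animal as a block, by edgeR's quasi-likelihood test with Benjamini-Hochberg adjustment over all genes tested and a threshold of 0.05. All 8 markers were higher in dCA1 than in vCA1, where 21.1% of all genes differed in either direction (14 animals). Lct and Tdo2 reached 12.4 CPM, the filter level on low counts in the DEX fit of vCA1, in 0 CNTRL libraries there. Dsp reached it in 3, Plk5 in 4 and Npnt in 5, so all of these were tested because of their dCA1 libraries. The log2 difference ran from 2.06 ± 0.16 (SE) for Stxbp6 to 3.99 ± 0.23 for Dsp. Dsp was higher in dCA1 in 14 of 14 animals. Between dDG and vDG, where 11.6% of genes differed (15 animals), 6 of 8 markers were higher in dDG. The largest differences were Lct at 2.80 ± 0.36 and Dsp at 2.50 ± 0.38, and Prox1 (0.76 ± 0.27, edgeR adjusted p = 0.0661) and C1ql2 (0.84 ± 0.32, adjusted p = 0.0983) did not pass. The filter level in the DEX fit of vDG was 12.7 CPM. In vDG CNTRL libraries Lct reached it in 2 of 15, Tdo2 in 4 and Dsp in 7, so they were tested because of their dDG libraries. Without the vDG libraries holding cerebellar genes (13 animals, 8.79% of genes), Npnt moved from 1.16 ± 0.31 (edgeR adjusted p = 0.0157) to 0.96 ± 0.31 (adjusted p = 0.0557), and the other 5 calls held.

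Between vDG and vCA1, where 9.50% of genes differed (14 animals), 5 of 5 tested markers were higher in vDG. C1ql2 led with 1.97 ± 0.24, followed by Npnt at 1.41 ± 0.23, Prox1 at 1.34 ± 0.19, Plk5 at 1.31 ± 0.31 and Stxbp6 at 0.80 ± 0.17. With no filter on low counts 7 of 8 passed (7.67% of genes), all but Lct. With the 12 animals left without the cerebellar libraries (8.36% of genes), 4 of 4 tested markers passed and Plk5 fell below the filter on low counts. In the DEX animals the same difference passed for Plk5 alone of 6 tested, at 0.87 ± 0.25 (edgeR adjusted p = 0.0316; 6.62% of genes passed), with 1 of the cerebellar libraries among them. C1ql2 stood at 0.65 ± 0.32 (adjusted p = 0.241) and Prox1 at 0.35 ± 0.29 (adjusted p = 0.51) there. Npnt and Stxbp6, which passed in CNTRL animals, were at -0.011 ± 0.27 (edgeR adjusted p = 0.989) and -0.029 ± 0.20 (adjusted p = 0.959). No marker differed between dDG and dCA1 by this test, where 1.40% of genes did (15 animals). The values there ran from -0.46 ± 0.18 for C1ql2 (edgeR adjusted p = 0.291) to 0.06 ± 0.15 for Lct, and DESeq2 called 0. An unadjusted p under 0.05 was reached by 2 of 8 members and by 988 of 8573 genes in all. With no filter on low counts, C1ql2 and Prox1 passed (2.60% of genes).

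Beside the tests, 2 promoter windows are shown, those of the 2 genes that moved apart after DEX in the results below. Each is the 250 bases before the RefSeq start (build GRCm38.p6), 5′ to 3′ on the gene's strand, with every GGGCGG (either strand), the GC box letters, in capitals. The Dsp window is chr13:38151044-38151293 and the Plk5 window chr10:80356209-80356458, both on the plus strand.
Dsp: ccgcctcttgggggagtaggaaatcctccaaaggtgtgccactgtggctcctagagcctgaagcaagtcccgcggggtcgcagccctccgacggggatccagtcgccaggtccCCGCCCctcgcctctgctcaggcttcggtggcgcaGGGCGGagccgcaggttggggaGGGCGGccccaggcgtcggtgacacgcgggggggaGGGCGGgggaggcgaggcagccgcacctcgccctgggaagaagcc
Plk5: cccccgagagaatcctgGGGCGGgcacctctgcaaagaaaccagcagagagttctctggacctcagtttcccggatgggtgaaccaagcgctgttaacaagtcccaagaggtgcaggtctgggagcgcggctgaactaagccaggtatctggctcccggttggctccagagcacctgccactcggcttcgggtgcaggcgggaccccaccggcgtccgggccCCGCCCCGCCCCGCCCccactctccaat
Each window holds 4 matches, those at the end of Plk5 overlapping, and 32.7% of 32851 promoter windows of this length hold at least 1. The GC content is 72.4% for Dsp and 65.6% for Plk5, against a median of 52.4% over all windows. AGAACA, the letters repeated in the palindromic binding site of the glucocorticoid receptor, was searched on both strands. It is in none of the 10 RefSeq windows of the 8 members, and in 16.1% of all windows. A match or its absence describes these letters only.

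The markers varied together from library to library. Their levels were compared with 8 other dentate genes that are not members (Rfx3, Glis3, Dock10, Ahcyl2, Trpc6, Il16, Maml2 and Sema5b), as the mean of log2(CPM + 1), here called the dentate reference level. All 64 correlations of a member with this level, 8 genes in each of 8 groups of 13 to 15 libraries, were positive. By permutation test (100000 draws, two-sided, adjusted over the 64), 54 passed with Pearson's r and 43 with Spearman's rho. Only the members were correlated in this way, so these counts have no share over all genes beside them. The slope on this level, tested over all genes, is given below. The median r over the 8 genes was 0.819 in dDG CNTRL, 0.922 in dDG DEX, 0.746 in dCA1 CNTRL and 0.855 in dCA1 DEX, and all 32 of these passed. With rho, 8 passed in dDG CNTRL, 7 in dDG DEX, 6 in dCA1 CNTRL and 3 in dCA1 DEX. The median r was 0.733 and 0.715 in vDG and 0.505 and 0.642 in vCA1, CNTRL first. With r, 7 and 6 of 8 passed in vDG and 3 and 6 in vCA1, and with rho 6 and 5, and 4 and 4. The lowest r was that of Npnt in vCA1 CNTRL, at 0.198 (permutation adjusted p = 0.497). Points of a correlation share a library and its depth.

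Part of the relation in the DEX arms of dCA1 and dDG rested on few libraries. Without the 2 libraries farthest from the median, the median r fell to 0.411 in dCA1 DEX and 0.630 in dDG DEX, against 0.642 and 0.683 in the CNTRL arms. A reference level more than 1 log2 unit below its group's median was found in 4 libraries, namely dDG CNTRL replicate 1, dDG DEX replicate 1, dCA1 CNTRL replicate 4 and dCA1 DEX replicate 1.

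**Figure D2:**
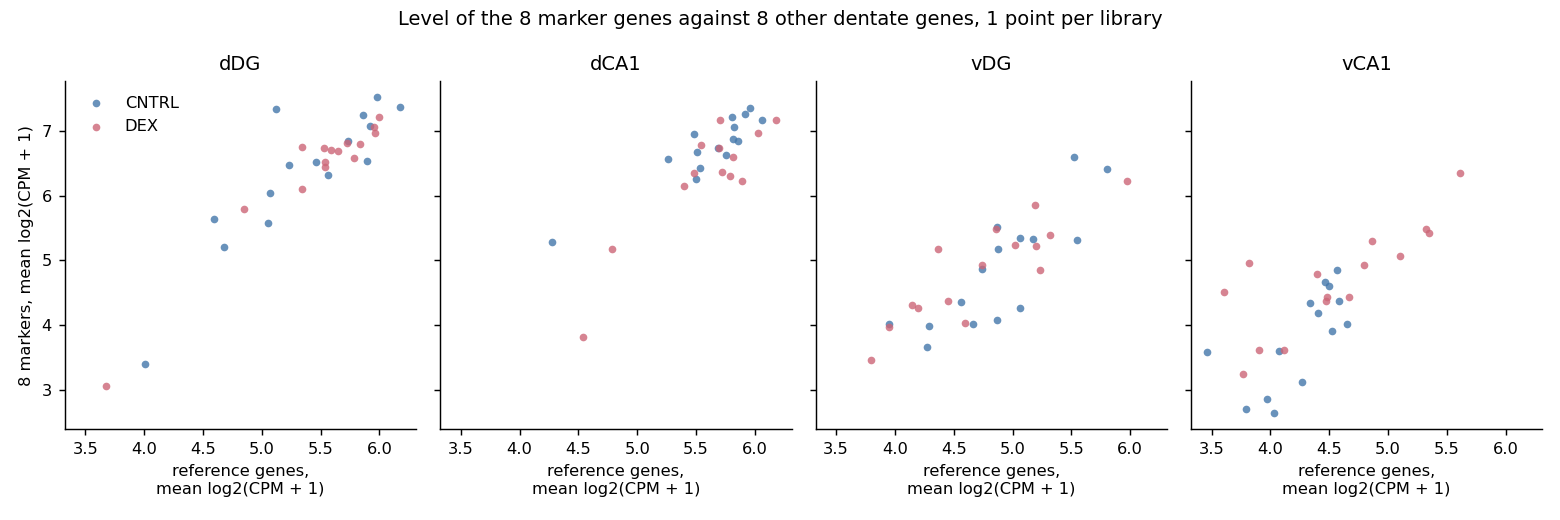
Mean log2(CPM + 1) of the 8 markers (y) against that of 8 other dentate genes (x), 1 point per library and 1 panel per region. Low points at the left of the dDG and dCA1 panels are the libraries with little dentate signal, and the vCA1 DEX points reach higher than the vCA1 CNTRL points on both axes.

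Plk5 had the lowest median correlation with the other 7 members in 3 groups, at 0.23 in vDG CNTRL, -0.02 in vDG DEX and 0.14 in vCA1 CNTRL, against 0.70 to 0.91 in dCA1 and dDG. Without the 4 libraries with cerebellar genes it was 0.54 in vDG CNTRL, 0.38 in vDG DEX and 0.53 in vCA1 CNTRL. Lct, which has few counts there, was also low in vDG DEX, at 0.31 with and 0.25 without these libraries. For Plk5 the correlation with the reference level was then 0.64, 0.60 and 0.45. The mean level of the 8 members went against the CA1 marker level in dCA1 (r = -0.58 in CNTRL, -0.85 in DEX) and dDG (-0.60 and -0.52). In vDG that r was 0.03 in CNTRL and -0.24 in DEX, and in vCA1 it was -0.06 in CNTRL and -0.71 in DEX. Other marker lists had r of like size. That of the newborn granule cell list was 0.68 to 0.85 in the 4 groups of dDG and dCA1. In all groups but vCA1 CNTRL, that of the CA2 and CA3 list was 0.44 to 0.78 and that of the oligodendrocyte list -0.77 to -0.50. The astrocyte list reached -0.79 in dCA1 CNTRL and the interneuron list -0.76 in dDG CNTRL. These r are descriptions over libraries.

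After DEX, Dsp, Npnt and C1ql2 rose in vCA1. DEX changed 5.45% of all genes there, and 3.41% rose. Dsp, from a CNTRL median of 7.30 to 24.6 CPM, exceeded every CNTRL library in 9 of 15 DEX libraries and the CNTRL median in 13. Its log2 fold change was 1.95 ± 0.40 (SE), a 3.87-fold rise (edgeR adjusted p = 0.000788). Npnt was above the CNTRL median in 14 of 15 DEX libraries and above all CNTRL libraries in 7, with a log2 fold change of 1.22 ± 0.31, 2.33-fold (adjusted p = 0.00837). C1ql2 was above the CNTRL median in 11 of 15 and above all CNTRL libraries in 6, at 1.08 ± 0.32, 2.11-fold (adjusted p = 0.0345).

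Prox1 missed the threshold in vCA1 at 0.80 ± 0.25 (edgeR adjusted p = 0.0522), and Stxbp6 at 0.42 ± 0.16 (adjusted p = 0.151). In the 29 fits that left out 1 library, Prox1 passed in 8 (edgeR adjusted p from 0.0154 to 0.126 over all 29) and Stxbp6 in 0. Lct, Tdo2 and Plk5 fell below the filter on low counts. The filter asked for 12.4 CPM or more in at least 12.8 of the 29 libraries. Dsp reached that level in 3 CNTRL and 12 DEX libraries and Npnt in 5 and 13, so both were tested because of their DEX libraries. With no filter, where 3.76% of genes passed, Dsp (edgeR adjusted p = 0.000378), Npnt (0.00596), C1ql2 (0.0249) and Prox1 (0.0392) passed. Tdo2 at 1.08 ± 0.34 (0.0633), Lct at 0.62 ± 0.42 (0.595) and Plk5 at 0.06 ± 0.35 (0.981) did not. That Plk5 value includes the vCA1 CNTRL library with cerebellar genes, and 12 of 15 DEX libraries were above the CNTRL median of Plk5. The Dsp call in vCA1 held in all alternatives, with adjusted p from 0.000378 to 0.00531 outside the removal of single libraries. The C1ql2 call ended with DESeq2 (adjusted p = 0.0636), with punching date and plate as factors (0.0985), with limma on the authors' values (0.107), with the replicate number as a block (0.0682, where 4.94% of genes passed) and without the vCA1 library with cerebellar genes (0.053, where 5.70% of genes passed), and Npnt's with date and plate (0.0561). The C1ql2 call also ended in 9 of 29 fits that left out 1 library (adjusted p up to 0.103), those of CNTRL replicates 2, 3, 4, 6, 7 and 15 and DEX replicates 1, 6 and 14. Within the 4 plates, Dsp, Npnt and C1ql2 were each higher after DEX in 4 of 4. Within the 4 punching dates with at least 2 libraries per arm, Dsp was higher in 4. C1ql2 was higher in 3 of these dates and lower in 1, by 0.052 log2 units.

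Levels of other marker lists in vCA1 are given beside this rise. The summed level of the 8 dentate reference genes had a median of 330 CPM in CNTRL (244 to 409) and 426 CPM in DEX (232 to 889). Of these genes 4 were tested and 1 passed, Ahcyl2, at 0.67 ± 0.13 (edgeR adjusted p = 0.000534). The summed CA1 pyramidal markers had medians of 705 CPM (434 to 932) and 605 CPM (266 to 817), with 0 of 7 past the threshold and 4 at an unadjusted p under 0.05. The summed oligodendrocyte markers had medians of 4615 CPM (2561 to 6562) and 3447 CPM (1939 to 7710), with 0 of 6 past it and 4 at an unadjusted p under 0.05. Of all 9126 genes tested in vCA1, 1397 had an unadjusted p under 0.05. Of 7 choroid plexus genes Ttr, the thyroid hormone carrier, was the 1 tested, and fell by 2.27 ± 0.56 on the log2 scale (adjusted p = 0.00692). The summed level of these 7 ran from 27.8 to 1524 CPM in CNTRL and 24.8 to 103 CPM in DEX, where Folr1 was at 0. Of 8 CA2 and CA3 markers 5 were tested, and Amigo2, an adhesion molecule, rose at 0.80 ± 0.22 (adjusted p = 0.0167). With both the dentate and the CA1 marker level as covariates, where 4.50% of genes passed, Dsp was at 1.38 ± 0.36 (edgeR adjusted p = 0.013), Npnt at 0.82 ± 0.30 (0.141) and C1ql2 at 0.21 ± 0.23 (0.84). The part of the oligodendrocyte, choroid plexus and CA2 and CA3 markers was not tested.

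Plk5 and C1ql2 fell in dCA1, where DEX changed 4.68% of all genes and 2.11% fell. Plk5 went from a CNTRL range of 20.1 to 130.1 CPM (median 84.0) to 4.39 to 83.3 CPM (median 45.3). All 13 DEX libraries were below the CNTRL median, and 2 were below every CNTRL library. Its log2 fold change was -0.82 ± 0.19, to 0.566 of CNTRL (edgeR adjusted p = 0.00562). C1ql2 was below the CNTRL median in 12 of 13 DEX libraries and below every CNTRL library in 6, with a log2 fold change of -0.64 ± 0.19, to 0.642 of CNTRL (adjusted p = 0.0411). Prox1 (-0.36 ± 0.18), Npnt (-0.41 ± 0.20) and Stxbp6 (-0.40 ± 0.18) lay on the same side without passing, and Dsp was at 0.14 ± 0.19.

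The dCA1 call of Plk5 passed in every alternative (adjusted p from 0.000302 to 0.00612 outside the removal of single libraries), and it was lower within 3 of 4 plates and within 4 of 4 punching dates with at least 2 libraries per arm. The fifth date held 1 library per arm. That of C1ql2 ended with DESeq2 (adjusted p = 0.0822; 0.000558 to 0.0415 in the other alternatives) and in 15 of 28 fits that left out 1 library, those of CNTRL replicates 3, 7, 8, 9, 10, 11, 13 and 14 and DEX replicates 2, 3, 5, 8, 13, 14 and 15. With the replicate number as a block, where 6.38% of genes passed, Stxbp6 also fell, at -0.49 ± 0.12 (edgeR adjusted p = 0.00647). Without the 2 dCA1 libraries of low dentate level, C1ql2 was at -0.58 (edgeR adjusted p = 0.0199) and Plk5 at -0.78 (adjusted p = 0.00107). The summed CA1 pyramidal markers in dCA1 had medians of 372 CPM in CNTRL (99.7 to 1219) and 249 CPM in DEX (87.4 to 1248), with 0 of 6 tested past the threshold. The summed dentate reference genes had medians of 836 CPM (374 to 1250) and 839 CPM (329 to 1400), with 0 of 7 tested past it. Other marker genes passed in dCA1. Of 6 newborn granule cell markers 3 were tested and Sox11, a transcription factor of immature neurons, fell at -0.39 ± 0.09 (edgeR adjusted p = 0.00652). Their summed level had medians of 364 CPM in CNTRL (304 to 472) and 287 CPM in DEX (211 to 421). Of 5 astrocyte markers, Aqp4, the water channel, fell at -0.44 ± 0.13 (adjusted p = 0.0491) and Aldh1l1, a folate enzyme, rose at 0.72 ± 0.19 (adjusted p = 0.0174). Their summed level had medians of 1468 CPM (1212 to 3083) and 1414 CPM (1093 to 1694). The part of these genes in the falls of Plk5 and C1ql2 was not tested.

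In dDG and vDG no member passed by edgeR, where 3.70% and 3.93% of all genes did, and DESeq2 called 0 in both. In dDG the values furthest from 0 were Plk5 at -0.48 ± 0.25 (edgeR adjusted p = 0.434) and Dsp at 0.43 ± 0.29 (adjusted p = 0.631). Same-numbered libraries of both arms share a plate, and with that number as a block Dsp rose in dDG at 0.52 ± 0.15 (edgeR adjusted p = 0.0338). The block raised the share of genes that passed there to 6.35%, while vDG still had no member past the threshold. Without the block, 0 of 8 members in dDG and 0 of 6 in vDG had an unadjusted p under 0.05. Of all genes, 1097 of 8548 in dDG and 1090 of 9311 in vDG did. In vDG the value furthest from 0 was Stxbp6 at -0.43 ± 0.25 (adjusted p = 0.578). The standard errors in dDG ran from 0.21 to 0.30, wider than the 0.18 to 0.22 in dCA1, so changes of the size seen in dCA1 were less detectable there.

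To part the amount of dentate tissue from the response, the same fits were made with the dentate reference level of each library as a covariate. The slope on that level passed for all 8 members in dDG (19.6% of all genes), for all 8 in dCA1 (20.5%), for 5 of 5 tested in vCA1 (1.44%) and for 5 of 6 tested in vDG (8.14%). A unit of reference level went with 1.27 ± 0.14 log2 units of Prox1 in dDG, 1.14 ± 0.16 in dCA1, 1.35 ± 0.13 in vDG and 1.36 ± 0.14 in vCA1. The exception was Plk5 in vDG, at 0.59 ± 0.29 (edgeR adjusted p = 0.203). Without the libraries with cerebellar genes that slope was 0.78 ± 0.19 (adjusted p = 0.0062; 9.80% of genes).

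Given the dentate level, Plk5 fell in both dCA1 and dDG. In dCA1, where 6.29% of all genes passed, Plk5 was at -0.81 ± 0.14 (edgeR adjusted p = 2.81e-05). C1ql2 stood at -0.63 ± 0.14 (adjusted p = 0.00254), Prox1 at -0.38 ± 0.12 (0.0394) and Stxbp6 at -0.38 ± 0.11 (0.0363). The sizes of these differences hardly moved from those without the covariate, and the standard errors shrank. The Prox1 and Stxbp6 calls ended when the reference list left out genes that DEX changed in any region (edgeR adjusted p = 0.145 and 0.12) and without the 2 libraries of low dentate level (0.0918 and 0.0643). With the other 7 members as the covariate, Prox1 was at -0.07 ± 0.08 (edgeR adjusted p = 0.798, where 6.48% of genes passed) and Stxbp6 at -0.10 ± 0.09 (adjusted p = 0.714; 6.54%). In dDG, where 4.78% of genes passed, Plk5 was at -0.56 ± 0.13 (adjusted p = 0.00389), and Dsp at 0.28 ± 0.18 (adjusted p = 0.548) did not pass. The summed choroid plexus markers had medians of 1330 CPM in CNTRL and 289 CPM in DEX in dDG (50.4 to 11614 and 54.5 to 13840), and the oligodendrocyte markers 4348 and 2983 CPM (1891 to 7012 and 1749 to 8676). None of 2 and 6 tested genes of these lists passed, and their part was not tested. The fall of Plk5 in dDG passed in all alternatives of this fit, with adjusted p from 0.00103 to 0.0223.

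In vCA1, where 4.53% of genes passed given the dentate level, the differences shrank. Dsp went from 1.95 to 1.30 ± 0.35 (edgeR adjusted p = 0.0168), Npnt from 1.22 to 0.80 ± 0.29 (0.128), C1ql2 from 1.08 to 0.32 ± 0.23 (0.67) and Prox1 from 0.80 to 0.22 ± 0.15 (0.651). Leaving out single libraries moved C1ql2 between 0.14 and 0.40 and Prox1 between 0.08 and 0.30, with no call. The Dsp call was lost without vCA1 DEX replicate 5 (adjusted p = 0.0927) and with the mean of the other 7 members as the covariate (1.00 ± 0.33, adjusted p = 0.0924; 3.42% of genes passed). It was also lost with the replicate number as a block (1.25 ± 0.38, edgeR adjusted p = 0.0567; 4.21%). With the reference list freed of genes that DEX changed in any region, Dsp at 1.49 ± 0.34 (adjusted p = 0.00351) and Npnt at 0.92 ± 0.28 (adjusted p = 0.0482) passed (4.90%). In vDG, where 4.47% of genes passed, no member did. Of 6 tested members 0 had an unadjusted p under 0.05, as did 1182 of 9311 genes.

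**Figure D3:**
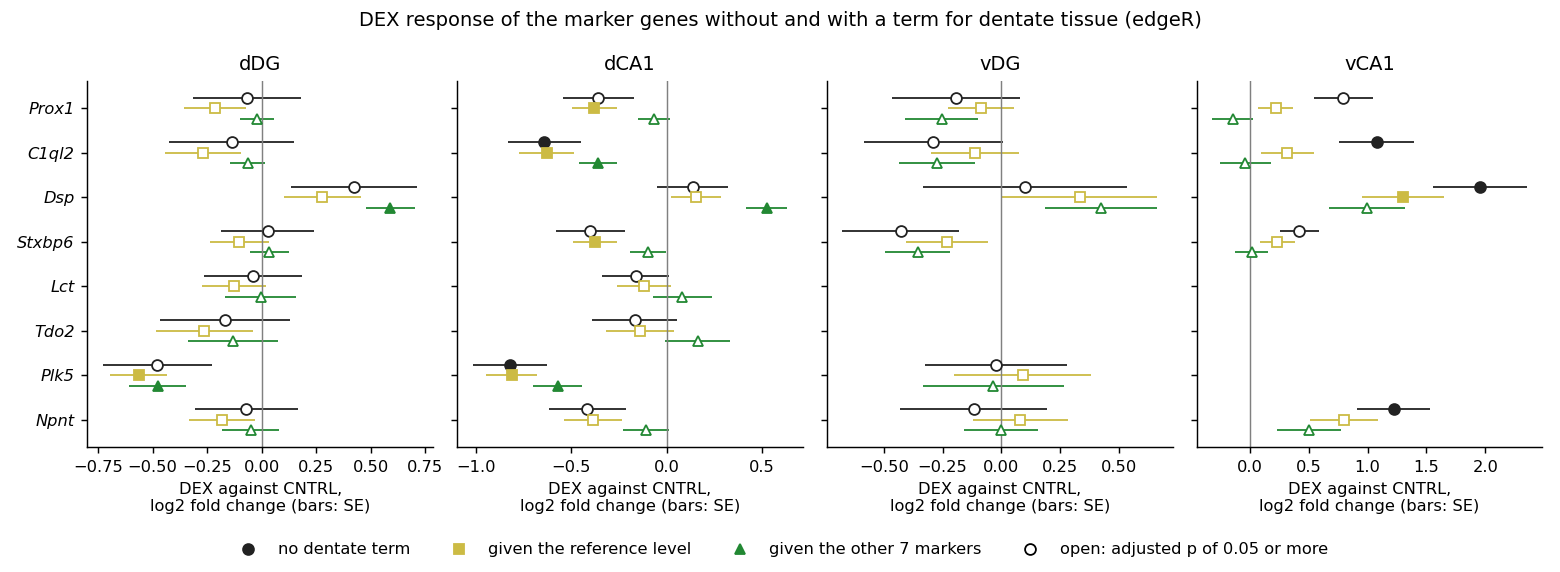
Log2 fold change of DEX against CNTRL (x, bars are SE) for each tested marker (y) in the 4 regions, from fits without a dentate term, with the reference level and with the other 7 markers as the term; filled symbols passed an adjusted p of 0.05, and the x scale differs between panels. Plk5 stays left of 0 in dDG and dCA1 in all 3 fits, and the vCA1 values move toward 0 when a dentate term is added.

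Each marker was also set against the other 7 in the same library, which removes what they share. Dsp rose on this scale in both dDG and dCA1. In dDG, Dsp minus the other 7 had a CNTRL median of 0.30 (-3.88 to 0.67) and a DEX median of 0.71 (-1.14 to 1.37) in log2 units. DEX libraries were above the CNTRL median in 14 of 15 cases and above every CNTRL library in 8. In dCA1 the medians were 0.12 (-0.37 to 1.21) and 0.62 (0.01 to 1.09), with 12 of 13 DEX libraries above the CNTRL median. In the edgeR fit with the other 7 as the covariate, Dsp was at 0.59 ± 0.11 in dDG (adjusted p = 0.00038; 5.37% of genes passed) and at 0.52 ± 0.11 in dCA1 (adjusted p = 0.000719; 6.93%).

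Plk5 fell against the other 7. Its ratio had medians of -0.22 in CNTRL and -0.80 in DEX in dDG, with 1 of 15 DEX libraries above the CNTRL median. In dCA1 they were -0.54 and -1.08, with 1 of 13 above it and 7 below every CNTRL library. The fit gave -0.48 ± 0.13 in dDG (edgeR adjusted p = 0.0223; 5.03% of genes passed) and -0.57 ± 0.13 in dCA1 (adjusted p = 0.00233; 6.22%). C1ql2 fell in dCA1 at -0.36 ± 0.10 (adjusted p = 0.0201; 6.44%), with 0 of 13 DEX libraries above the CNTRL median of the ratio.

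The 7 genes used as the term include those that fell, so a rise of Dsp against them and a fall of Plk5 are not independent of each other. Dsp did not pass in dDG or dCA1 with the reference level in their place, also with the replicate block (edgeR adjusted p = 0.0879 and 0.334). Without the libraries of low dentate level, Dsp was at 0.56 in dDG (edgeR adjusted p = 0.000141) and 0.59 in dCA1 (4.58e-05), Plk5 at -0.49 (0.0216) and -0.59 (0.00198), and C1ql2 in dCA1 at -0.29 (0.0597). Of all genes, 5.49% and 5.29% passed in the fits of Dsp, 4.76% and 5.26% in those of Plk5 and 5.39% in that of C1ql2. The other 5 members (Prox1, Stxbp6, Lct, Tdo2 and Npnt) passed in neither dDG nor dCA1 on this scale. In vDG, Stxbp6 passed at -0.40 ± 0.12 (edgeR adjusted p = 0.0366) without the 3 libraries with cerebellar genes, where 4.77% of genes passed, and stood at -0.36 ± 0.14 (adjusted p = 0.179) with them, where 4.56% did.

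**Figure D4:**
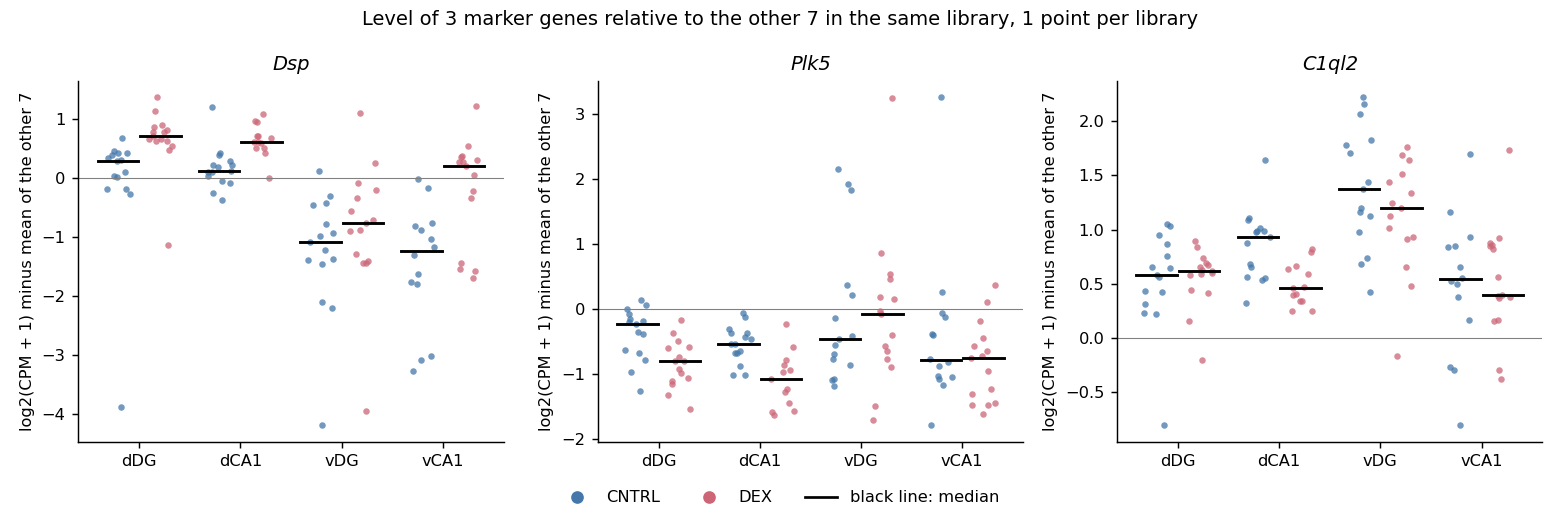
Log2(CPM + 1) of Dsp, Plk5 and C1ql2 minus the mean of the other 7 markers of the same library (y) by region and arm, 1 point per library, with bars at group medians. Dsp DEX points lie above the CNTRL median in 14 of 15 dDG and 12 of 13 dCA1 libraries, all but 1 Plk5 DEX point in each of these regions lies at or below it, and the 4 highest Plk5 points of vDG and vCA1, from 1.93 to 3.26, are the libraries with cerebellar genes.

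Whether the response differed between regions was tested as a region-by-arm interaction, given as a difference of log2 fold changes, first region minus the second. Between dCA1 and vCA1, where 0.0207% of genes passed, no member did. C1ql2 (-1.71 ± 0.39, edgeR adjusted p = 0.0836), Npnt (-1.63 ± 0.38, 0.0983) and Dsp (-1.81 ± 0.45, 0.107) came nearest. Of 8 members 7 had an unadjusted p under 0.05, as did 610 of all 9683 genes tested. DESeq2, which called 13 of 9683 genes, gave an adjusted p of 0.0491 for both C1ql2 and Npnt. In the other alternatives theirs ran from 0.0667 to 0.383 and from 0.0791 to 0.341. Without the vCA1 library with cerebellar genes, 0.0620% of genes passed and Plk5 moved from -0.88 ± 0.44 (adjusted p = 0.79) to -1.69 ± 0.35 (adjusted p = 0.0242). Between dDG and dCA1, vDG and vCA1, and dDG and vDG, edgeR called 0% of genes and DESeq2 0 members. An unadjusted p under 0.05 was reached by 0 of 8, 5 of 7 and 0 of 8 tested members there, and by 283, 365 and 371 genes in all.

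Outside the hippocampus, Prox1 fell after DEX in CER, AMY and PVN. In the libraries labelled CER, DEX changed 6.18% of genes, and Prox1 went from 122 CPM (56.6 to 194) to 54.3 CPM (35.6 to 116). All 15 DEX libraries were below the CNTRL median and 8 below every CNTRL library, at a log2 fold change of -1.04 ± 0.14, to 0.485 of CNTRL (edgeR adjusted p = 3.72e-07). In AMY, where DEX changed 5.62% of genes, Prox1 went from 85.1 CPM (42.1 to 134) to 62.9 CPM (33.5 to 103). Of 15 DEX libraries there, 14 were below the CNTRL median, at -0.47 ± 0.13 (adjusted p = 0.0247). In PVN (5.63% of genes) it went from 128 CPM (78.8 to 184) to 100.3 CPM (64.6 to 123). All 15 DEX libraries were below the CNTRL median, at -0.35 ± 0.11 (adjusted p = 0.0343). PFC had the lowest Prox1, at 42.5 and 35.8 CPM, and -0.23 ± 0.13 did not pass (adjusted p = 0.444; 6.14% of genes did).

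The CER fall of Prox1 passed in all alternatives, as did that in AMY (adjusted p from 0.00625 to 0.042). In PVN it missed the threshold with limma on the authors' values (adjusted p = 0.0553; 0.00796 to 0.04 in the other alternatives). Within the 4 plates Prox1 was lower after DEX in 4 of 4 in each of these 3 regions. Within the 4 punching dates with at least 2 libraries per arm, Prox1 was lower in 4 in CER and in PVN. In AMY it was lower in 3 of these dates and higher in 1, by 0.039 log2 units. Gabra6 and Pcp2, genes of cerebellar neurons, were nearly absent from the CER libraries, as given above. The labels do not spell out CER, and it is used here as a label only. Of the 8 dentate reference genes 4 were tested in each of the 3 regions, and Dock10, a guanine nucleotide exchange factor, was the 1 that passed. It fell at -0.37 ± 0.11 in CER (edgeR adjusted p = 0.0353), -0.33 ± 0.10 in AMY (adjusted p = 0.0404) and -0.37 ± 0.11 in PVN (adjusted p = 0.0471). Their summed level had medians of 335 CPM in CNTRL and 279 CPM in DEX in CER, 381 and 340 in AMY, and 280 and 252 in PVN. Of the marker lists of other cells, Pou3f1 (-0.49 ± 0.15, edgeR adjusted p = 0.0363) and Mog (-0.58 ± 0.17, adjusted p = 0.0303) fell in AMY, and Amigo2 rose in AMY (0.57 ± 0.15, adjusted p = 0.0136) and PVN (0.55 ± 0.16, adjusted p = 0.024). Of 7 granule cell transcription factors 4 were tested in PVN. Lef1 fell there at -1.05 ± 0.22 (edgeR adjusted p = 0.000711) and Zbtb20 rose at 0.25 ± 0.06 (adjusted p = 0.00969). The part of these genes in the fall of Prox1 was not tested. No other member passed outside the hippocampus, where 2 to 4 of the other 7 were tested per region.

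Across all 8 regions in 1 fit, the interaction of Prox1 gave F = 5.11 (edgeR adjusted p = 0.00365), where 1.17% of genes passed. It was the 1 member called. With animals as blocks in a limma voom fit the adjusted p was 0.203, and 0.00135 to 0.0236 in the other alternatives.

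**Figure D5:**
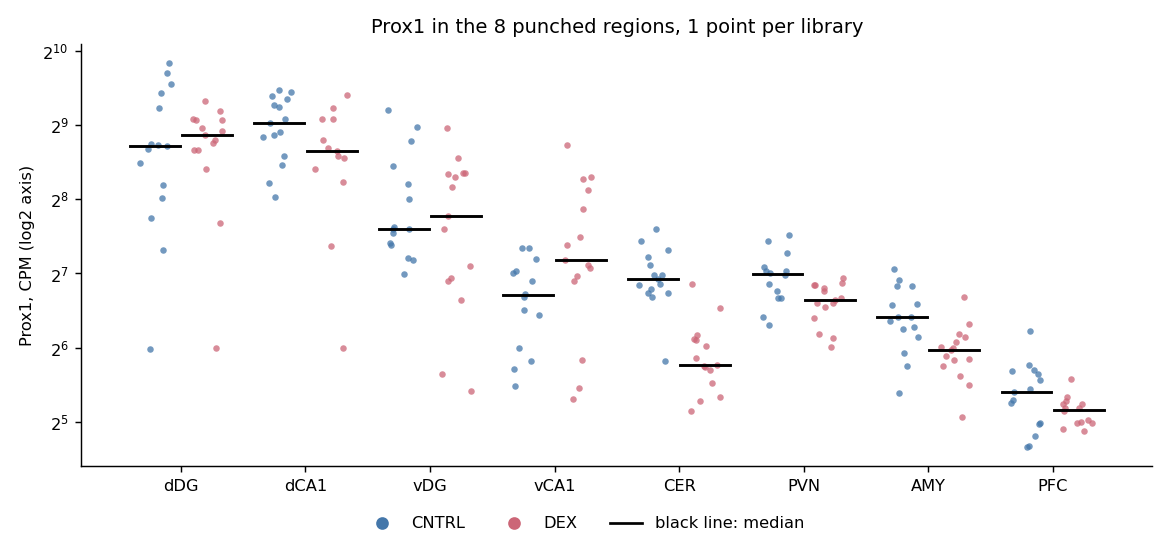
Prox1 in CPM on a log2 axis (y) in the 8 punched regions (x), 1 point per library, CNTRL and DEX side by side with bars at group medians. All CER DEX points lie below the CNTRL median of 122 CPM, while in vCA1 DEX libraries reach 423 CPM against a CNTRL maximum of 162 CPM.

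Genes that work with the members were described in the 4 hippocampal regions, by lists of functional partners. Of 6 desmosome and adherens junction genes, Pkp2, the plakophilin that binds desmoplakin, rose in dDG at 0.63 ± 0.18 (edgeR adjusted p = 0.0336) and in vDG at 1.02 ± 0.24 (adjusted p = 0.00684). It also rose in PFC, at 1.70 ± 0.17 (adjusted p = 2.07e-10), where Dsp, with medians of 2.32 CPM in CNTRL and 1.67 CPM in DEX, was not tested. Jup, plakoglobin, fell in vCA1 at -0.71 ± 0.21 (adjusted p = 0.0333). In dCA1 none of 4 tested genes of that list passed. Of the C1q-like proteins and their receptors 5 of 7 were tested in each region, of the vesicle fusion genes 6 of 6, of the integrin and matrix genes 3 of 5, and of the granule cell transcription factors 6 of 7. From the kynurenine pathway 1 of 9 genes and from the polo kinases 1 of 4 were tested. None of these passed in any of the 4 regions.

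The genes most like the 8 markers were sought over the 59 CNTRL hippocampal libraries, by the correlation of each gene with the mean level of the markers after each group's mean was subtracted. Over the 11439 genes averaging 5 CPM or more, those with the highest r included Sema5a (0.891), a semaphorin, Kctd4 (0.870), Rfx3 (0.850), a transcription factor of the reference list, and Synpr (0.833), the synaptic vesicle protein synaptoporin. Of the reference genes, Sema5b was least like the markers (r = 0.115), and Ahcyl2 stood at 0.723. These r describe libraries that share punch and depth.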

How the data were processed

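The authors deposited raw counts per gene and, per region, variance-stabilised values on a log2 scale. QuantSeq forward libraries with unique molecular identifiers were made from punch RNA, per the labels' protocols. The submitters' processing notes name mm10, FastQC 0.11.4, cutadapt, UMI-tools 0.5.4, STAR 2.6.0a, featureCounts 1.6.4, DESeq2 1.30.1 and R 4.0.5. The annotation and the use of strand are not given in the sources used here. The deposited counts cover 235 libraries and the deposited log2 values 228 of them. Symbols came from a GENCODE M21 table, which matched 27645 of 27998 genes. The median library held 742957 counts (268538 to 1451422), and these totals limit the precision of each value.

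Groups came from the titles and treatment labels. Genes passing filterByExpr were scaled by TMM and tested with edgeR 4.0.16 (estimateDisp, glmQLFit, glmQLFTest) in R 4.3.3. Benjamini-Hochberg adjustment ran over all genes of a fit, with a threshold of 0.05. Each standard error was taken from the log2 fold change and its F value, as the size of the change over √F. DESeq2 1.42.0 and limma 3.58.1 served as alternatives, beside other scalings, filters, covariates and left-out libraries. Correlations used log2(CPM + 1) in Python 3.11.15 with numpy 2.4.6. The smallest p that 100000 permutations can give is 1e-05. The fits were tested on simulated data, drawn as independent counts with the same dispersion for all genes and no punch or animal effect. That test does not cover a varying share of dentate tissue. Promoter windows are from RefSeq on GRCm38.p6.

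Per the labels, same-numbered CNTRL and DEX libraries of a region share the plate in 115 of 115 pairs and the punching date in 109, the exception being number 4. The number was a block in an alternative fit, which is given where it changes a call. Deviations from the group means correlated above 0.1 in 4 to 12 of 13 to 15 pairs per region. The animal was a block in the region differences, and in the interactions only in an alternative fit. The animals are separate per the labels.

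The members, the reference list, the partner lists and the tests were chosen with earlier results of these data known. The rule for named genes took the 8 members, the reference genes, partner genes that pass in a hippocampal region, Fkbp5, Tsc22d3 and Sgk1, and the 5 genes most like the markers, 1 of which is not reported here. Marker genes of other cells, and Lef1 and Zbtb20 in PVN, were named where they passed beside a member, after their values were seen. Gabra6, Pcp2 and the libraries left out for them or for a low dentate level were chosen after their values were seen.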

Additional observations from a re-analysis of the deposited data

Results flagged for a closer look

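The response of Prox1 to DEX differed among the 8 regions by the test of the interaction itself, with F = 5.11 (edgeR adjusted p = 0.00365). Its log2 fold change ran from -1.04 in CER to 0.80 in vCA1, where Prox1 missed the threshold (adjusted p = 0.0522). The animals shared by the regions were not blocks in that fit, and with them as blocks in limma voom the adjusted p was 0.203.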

How the results depend on the processing

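Depth limits the low members most. Lct, Tdo2 and Plk5 were under the filter on low counts in vCA1, and Lct and Tdo2 in vDG. Of the values for single genes, 1166 kept direction and side of the threshold, 49 lost the threshold, 28 gained it and 38 changed sign. The values below give the members past the threshold, and the cause of each change was not tested. With limma on the authors' values PVN had 0 (1 as reported). With DESeq2 dCA1 had 1 (2 as reported), and its interaction with vCA1 had 2 (0 as reported). With date and plate vCA1 had 1 (3 as reported). Leaving out single libraries gave 1 to 2 in dCA1, and 0 to 1 in vCA1 given the dentate level. With the other 7 members as the level, dDG had 2, also without the libraries of low dentate level (1 as reported), dCA1 had 3 (4 as reported, with Dsp in and Prox1 and Stxbp6 out), and vCA1 had 0, also without the libraries with cerebellar genes (1 as reported), while vDG had 1 without the latter (0 as reported). With the reference list without DEX genes, dCA1 had 2 (4 as reported) and vCA1 2 (1 as reported). Without the libraries of low dentate level dCA1 had 2, with either level. The dDG to dCA1 difference gave 2 with no filter (0 as reported), and that of vDG to vCA1 gave 1 in DEX animals (5 as reported). Without the vCA1 library with cerebellar genes the dCA1 to vCA1 interaction gave 1 (0 as reported). Over all 8 regions, 2 passed with the dentate level as a covariate and 0 with limma voom (1 as reported).

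As a replicate block, the number gave 1 in dDG (Dsp, 0.52, edgeR adjusted p = 0.0338), 3 in dCA1, 2 in vCA1 and, with the dentate level, 0 in vCA1. It changed no other call of a member, interactions included. With no replicate block, that is without the animal, the region differences gave 0 for dDG to dCA1 (0.630% of genes), 4 for vDG to vCA1 (8.30%), 7 for dDG to vDG (11.5%) and 8 for dCA1 to vCA1 (22.1%).

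Values that changed sign missed the threshold under the alternative. As reported, 3 of them had passed, Prox1 in dCA1 given the dentate level and Stxbp6 and Npnt between vDG and vCA1. For DEX in dDG they were Prox1 at 0.033 (block) and 0.046 (authors' values), C1ql2 at 0.037 and Npnt at 0.025 (authors' values), and Stxbp6 at -0.0097 (date and plate). In vDG they were Dsp at -0.0042 (without cerebellar libraries), Plk5 at 0.037 (date and plate) and Npnt at 0.0035 (block), 0.021 (date and plate) and 0.029 (authors' values). In dCA1 Dsp was at -0.019 (authors' values). Given a dentate level, the values in dDG were Stxbp6 at 0.036 and 0.050 (other 7, all libraries and without low ones). In vDG they were C1ql2 at 0.065 and Plk5 at -0.088 (block), Plk5 at -0.033 (other 7), and Npnt at -0.0023 (other 7), -0.0012 (without Sema5b), -0.027 and -0.040 (without cerebellar libraries, reference and other 7). In dCA1 they were Prox1 at 0.0055 (without low libraries, other 7), Lct at 0.083 and 0.12, and Tdo2 at 0.16 and 0.11 (other 7, without and with that removal). In vCA1 they were Prox1 at -0.15 and -0.14, C1ql2 at -0.039 and -0.11, and Stxbp6 at -0.031, all with the other 7, the second of each pair and Stxbp6 without the cerebellar library. In DEX animals the dDG to dCA1 differences were Prox1 0.20, C1ql2 0.24, Dsp 0.23, Stxbp6 0.26, Plk5 0.31 and Npnt 0.18, and the vDG to vCA1 differences Stxbp6 -0.029 and Npnt -0.011.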
